A study of Mus musculus with 10 samples.

Results

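Dnmt1, Dnmt3a, Dnmt3b, Uhrf1, Uhrf2, Hells and Tdg are genes that write, maintain or remove DNA methylation, and 6 of these 7 listed genes have a row among the 13578 genes of the table. They were chosen by name, and Tdg, for which none of 4 names gave a row, was not analysed here. Expression was measured by RNA sequencing in the Oct4-negative gonadal cells, sorted away from the germ cells, of single female C57BL/6 mouse embryos at embryonic day 13.5. The 5 withdrawn embryos came from mothers taken off vitamin C in the early part of gestation, and the 5 supplied embryos from mothers that received physiological amounts. All 10 embryos, those of both groups, carried Gulo-/-, the loss of the last enzyme of vitamin C synthesis, so no embryo could make the vitamin and there was no Gulo-positive group. The comparison asks whether the expression of these genes in the gonadal soma differed when maternal vitamin C was withdrawn.

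DNA methylation is placed on cytosines of CpG dinucleotides by the de novo enzymes DNMT3A and DNMT3B. It is copied onto new strands after replication by DNMT1, which UHRF1 brings to sites where only the old strand is methylated, with the help of the chromatin remodeller HELLS. TET enzymes, whose activity vitamin C promotes, oxidise the methyl group, and the glycosylase TDG can then excise the oxidised base. These genes are therefore the counterpart of the vitamin C-dependent demethylases, and the maintenance genes among them are expressed most in dividing cells.

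The promoters of Dnmt1 and Uhrf1 held a motif that few other promoters hold. It is shown here because these were also the members whose values moved together most closely between embryos. A link of the motif to those values was not tested. The motif searched was TTTNGCGC, a letter pattern recognised by E2F factors, which act in S phase, on both strands of the 250 bases before each start in RefSeq (GRCm38.p6). It was present in at least 1 promoter of 2 of the 7 genes and of 1.31% of all 27025 genes. The motif itself contains CpG, and that share was not matched for CpG content or for the number of promoters per gene. Whether the motif is unusual among promoters as rich in CpG was not tested. The lines give 30 bases in the direction of the gene, with the match in capitals.
Dnmt1: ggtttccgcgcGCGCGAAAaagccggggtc
Uhrf1: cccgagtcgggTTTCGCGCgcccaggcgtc

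The Dnmt1 stretch lies at chr9:20952824-20952853 on the minus strand, with the match in the opposite orientation and beginning 219 bases before one of 3 annotated starts. The Uhrf1 stretch lies at chr17:56304117-56304146 on the plus strand, with its match 185 bases before one of 2 starts. The 250 bases before the starts of Dnmt3a, Dnmt3b, Uhrf2, Hells and Tdg do not hold these letters. A second motif, CCAAT, on either strand, was present in promoters of Dnmt1, Uhrf1 and Tdg, and in those of 37.5% of all genes. One Dnmt1 promoter holds CCAAT on both strands at overlapping positions. Promoters of the 7 genes were mostly rich in CpG. The richest promoter of each held from 19 (Tdg) to 40 (Dnmt3a) CpG dinucleotides in the 250 bases before the start, against a median of 6 over all promoters. A match of letters is a description of the reference and not a measurement of binding.

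Expression is given as the authors' rlog values, a log2 scale on which weakly expressed genes are pulled towards their mean, so that differences are understated. These values do not hold the read depth, which is unknown, and counting error cannot be set beside them. Nothing states that the 5 embryos of a group came from separate litters, so the p-values measure the spread between these embryos. In each group embryos 2 and 3 share a number in their titles, whose meaning is not stated, and the main test treated them as separate. Sample medians lay between 9.12 and 9.14. All 20 gonadal soma markers on a fixed list, among them Nr5a1, Gata4, Wt1 and Foxl2, had a row. Of 24 germ cell markers 7 had a row, and Pou5f1 (which encodes Oct4), Ddx4 and Dazl did not. The mean of those 7 lay between 6.14 and 6.37 in withdrawn and between 6.15 and 6.33 in supplied embryos. Markers of other cell types were present. The mean of 18 endothelial markers lay between 8.48 and 8.62 in withdrawn and between 8.56 and 8.74 in supplied embryos, with 14 of 18 differences below 0 (Eng -0.39, limma adjusted p = 0.210). That of 9 neural and glial markers lay between 7.36 and 7.46 in withdrawn and between 7.31 and 8.59 in supplied embryos, highest in supplied embryos 2 (8.59) and 3 (8.10), with 8 of 9 differences below 0 (Chgb -2.10, limma adjusted p = 0.900). Macrophage markers (14) averaged between 7.25 and 7.49 in withdrawn and between 7.27 and 7.50 in supplied embryos, and erythroid markers (12) between 8.77 and 9.32 in withdrawn and between 8.64 and 9.33 in supplied embryos. Of the macrophage differences 9 were below 0 and 5 above, and of the erythroid ones 8 were below and 4 above. Limma called 0 genes of these 4 lists, where 0.0221% of all genes were called. An unadjusted limma p under 0.05 was found for 2 endothelial, 2 macrophage, 0 erythroid and 1 neural or glial gene, and for 5.3% of all genes. The part of these cell types in the values below was not tested. In bulk samples, fewer cells of a type and less RNA per cell cannot be told apart.

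None of the 6 genes passed the test of withdrawn against supplied embryos, and the differences were small. By limma fitted on all genes, with Benjamini-Hochberg adjusted p under 0.05, 0 of the 6 were called, where 0.0221% of all genes were called (3 of 13578, all lower in the withdrawn embryos). At an unadjusted limma p under 0.05 the count was also 0 of 6, where 5.3% of all genes had such a p. The exact permutation test of each gene's difference of means, two-sided over all orders of the embryos, gave no p under 0.05 either, with a lowest p of 0.0635 where the smallest possible is 0.00794. The groups overlapped in all 6 genes, and were separate in 0.81% of all genes. The 95% limma intervals reached at most 0.17 from 0 in any of the 6, so a larger difference on the shrunken rlog scale lay outside every interval.

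**Figure D1:**
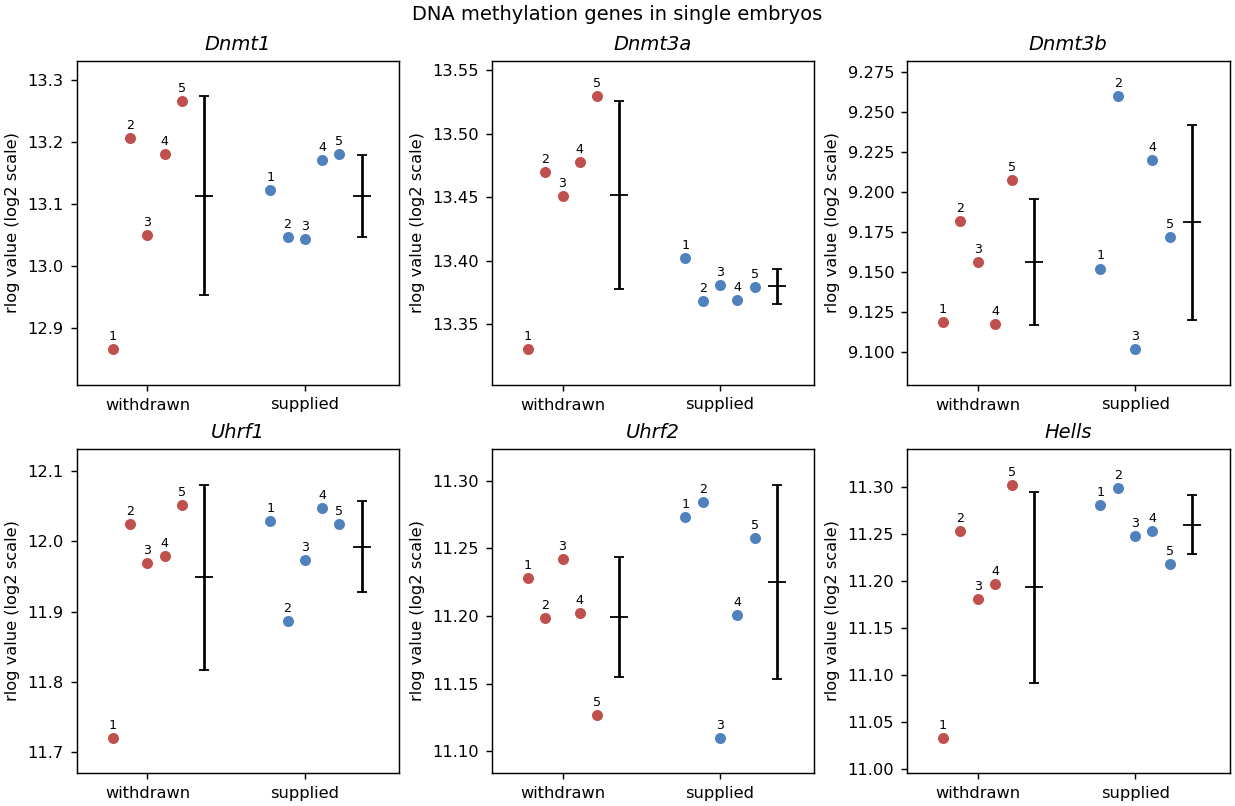
rlog value (log2 scale) of each gene in every embryo, withdrawn (red) and supplied (blue), with the replicate number above each point and the mean and SD (n = 5) as a bar beside it; each panel has its own range. Withdrawn embryo 1 is the lowest point of all 10 for Dnmt1, Dnmt3a, Uhrf1 and Hells.

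Among the enzymes that set methylation anew, Dnmt3a was the member with the smallest p. It stood at 13.33, 13.47, 13.45, 13.48 and 13.53 in withdrawn embryos 1 to 5, against 13.40, 13.37, 13.38, 13.37 and 13.38 in supplied embryos 1 to 5. All withdrawn embryos but embryo 1 lay above every supplied one, and embryo 1 lay below them all. The means were 13.45 ± 0.0738 in withdrawn and 13.38 ± 0.0137 in supplied embryos (SD, n = 5 each), a difference of 0.07 (SE 0.0451, 95% interval -0.02 to 0.17, limma adjusted p = 0.963), or 1.05-fold with an interval from 0.984 to 1.12. Having 4 of 5 withdrawn embryos above all supplied ones, a count taken up after the values were seen, was found in 2.69% of all genes. Without withdrawn embryo 1 the difference was 0.10 (SE 0.0391, limma unadjusted p = 0.0200, adjusted p = 0.819), so that 1 of the 6 genes then had an unadjusted p under 0.05, and after quantile normalization it was 0.03 (limma adjusted p = 0.988).

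Dnmt3b, the other de novo enzyme, stood at 9.12, 9.18, 9.16, 9.12 and 9.21 in withdrawn embryos 1 to 5, against 9.15, 9.26, 9.10, 9.22 and 9.17 in supplied embryos. The withdrawn values lay within the span of the supplied ones, whose highest and lowest were embryos 2 and 3. Dnmt3b had a difference of -0.02 (SE 0.0437, 95% interval -0.12 to 0.07, limma adjusted p = 0.993). It was -0.0050 without supplied embryo 2, and -0.04 without supplied embryo 3. Subtracting the Dnmt3b from the Dnmt3a value within each embryo gave between 4.21 and 4.36 in withdrawn embryos, against 4.11 to 4.28 in supplied embryos. The mean of this balance, which is not corrected for gene length, was 0.10 larger in withdrawn embryos, and 4 of 5 withdrawn embryos lay above all supplied ones. It was chosen after the values were seen and carries no test. RefSeq lists a pseudogene copy of each (Dnmt3a-ps1 and Dnmt3b-ps1), and GENCODE lists an antisense gene across each (Dnmt3aos and Dnmt3bos). The sources used here do not give how shared reads and strand were treated in counting, so both values are uncertain to that extent.

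Dnmt1, the maintenance methyltransferase, differed least between the group means and most between single withdrawn embryos. It stood at 12.87, 13.21, 13.05, 13.18 and 13.27 in withdrawn embryos 1 to 5, against 13.12, 13.05, 13.04, 13.17 and 13.18 in supplied embryos. Withdrawn embryo 1 was the lowest of all 10, whereas embryos 2 and 5 of that group were the 2 highest. The difference of 0.0011 (SE 0.0656, 95% interval -0.14 to 0.14, limma adjusted p = 0.999) was therefore the balance of opposite deviations, and was 0.06 without withdrawn embryo 1 and -0.04 without withdrawn embryo 5. The sign changed in 8 of 21 other settings, some of which cannot alter the difference itself.

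Uhrf1, which reads hemimethylated DNA with its SRA domain and recruits DNMT1, had the same extremes. Its values were 11.72, 12.02, 11.97, 11.98 and 12.05 in withdrawn embryos 1 to 5, against 12.03, 11.89, 11.97, 12.05 and 12.02 in supplied embryos. Apart from withdrawn embryo 1 the groups shared 1 span. The difference was -0.04 (SE 0.0581, 95% interval -0.17 to 0.08, limma adjusted p = 0.991), and without withdrawn embryo 1 it was 0.01 (limma adjusted p = 0.974), so its negative sign rested on that embryo.

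Uhrf2, the paralog of Uhrf1 that shares its domains but does not replace it in maintenance, did not follow it. It stood at 11.23, 11.20, 11.24, 11.20 and 11.13 in withdrawn embryos 1 to 5, against 11.27, 11.28, 11.11, 11.20 and 11.26 in supplied embryos. Withdrawn embryo 1 was in the middle of the range and withdrawn embryo 5 second lowest. The difference was -0.03 (SE 0.0443, 95% interval -0.12 to 0.07, limma adjusted p = 0.992), with -0.0076 without withdrawn embryo 5 and -0.05 without supplied embryo 3.

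Hells, the SNF2-type remodeller that opens nucleosomal DNA to the methyltransferases, had the most negative difference of the 6. Its values were 11.03, 11.25, 11.18, 11.20 and 11.30 in withdrawn embryos 1 to 5, against 11.28, 11.30, 11.25, 11.25 and 11.22 in supplied embryos. Embryos 1, 3 and 4 of the withdrawn group lay below every supplied embryo, and withdrawn embryo 5 reached the level of the highest supplied one. The difference was -0.07 (SE 0.0486, 95% interval -0.17 to 0.04, limma adjusted p = 0.978), or 0.955-fold with an interval from 0.889 to 1.02. Without withdrawn embryo 1 it was -0.03 (SE 0.0413, limma adjusted p = 0.953).

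**Figure D2:**
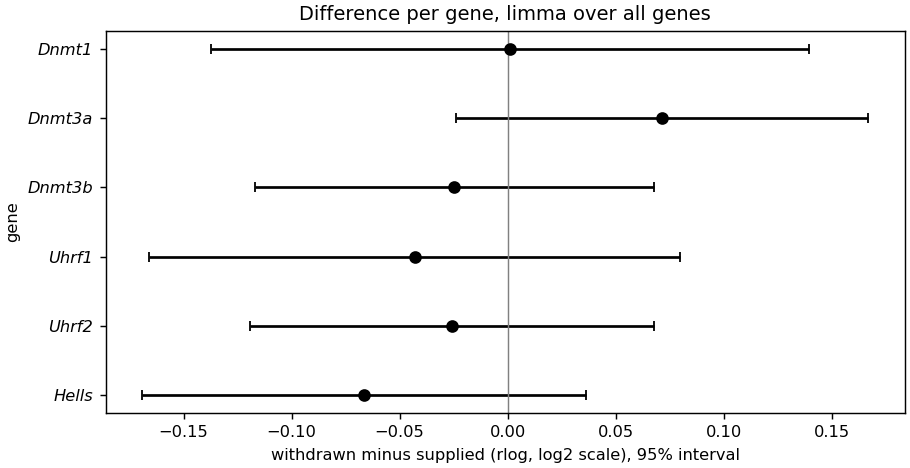
Difference between the group means of each gene, withdrawn minus supplied, in rlog units (log2 scale); points are limma estimates and bars their 95% intervals (n = 5 embryos in each group). All 6 intervals hold 0, and none reaches beyond 0.17 in either direction.

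The spread between embryos, rather than the mean, set several of these genes apart from each other. Dnmt3a varied little among supplied embryos: 0.376% of all genes had as small an SD there. Its SD was 5.38 times larger in withdrawn embryos, a ratio reached by 0.324% of all genes. The ratio was 3.23 for Hells, 2.43 for Dnmt1 and 2.04 for Uhrf1, against 0.644 for Dnmt3b and 0.618 for Uhrf2, and its median over all genes was 0.969. In all, 4 of the 6 had an SD at least 2 times larger in withdrawn embryos, as did 9.18% of all genes. These ratios were looked at after the values were seen, no test was made of them, and the spread of these 4 genes comes from the same embryos.

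Those embryos were withdrawn embryo 1, the lowest of all 10 for Dnmt1, Dnmt3a, Uhrf1 and Hells, and withdrawn embryo 5, the highest of all 10 for the same 4, although only by a little for Uhrf1 (12.051, next 12.047) and Hells (11.303, next 11.299). Such a pair of extremes, chosen after the values of these genes were seen and not tested, was found in 1.63% of all genes. It was found in 3 of the 40 genes of a fixed S phase list, which holds the Mcm helicase genes and Rrm2, and in 5 of 27 genes of G2 and M phase. The mean over the 40 S phase genes was 10.11, 10.20, 10.13, 10.18 and 10.23 in withdrawn embryos 1 to 5, against 10.19, 10.16, 10.16, 10.16 and 10.17 in supplied embryos. The lowest and the highest mean thus belonged to the same 2 withdrawn embryos. The mean over the G2 and M phase genes was highest in withdrawn embryo 5 (10.77), while that of withdrawn embryo 1 (10.56) was close to that of withdrawn embryo 3 (10.55). Between the groups 0 genes of either list were called by limma. In the S phase list 20 genes were above 0 and 20 below, with a median of -0.0029, with the clamp loader gene Dscc1 at -0.09 and the cyclin gene Ccne2 at -0.07. Without withdrawn embryo 1 it was 26 above and 14 below, with a median of 0.02 and 1 gene at an unadjusted p under 0.05. In the G2 and M phase list 19 genes were above 0 and 8 below, or 15 and 12 after quantile normalization, with Ccnb2 at 0.08, Ube2c at -0.08 and Cdc25c at -0.05. With the S phase mean as a covariate the differences were 0.07 for Dnmt3a, -0.07 for Hells, -0.04 for Uhrf1 and -0.00097 for Dnmt1, and 0 of the 6 genes were called by limma, also at an unadjusted p under 0.05.

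**Figure D3:**
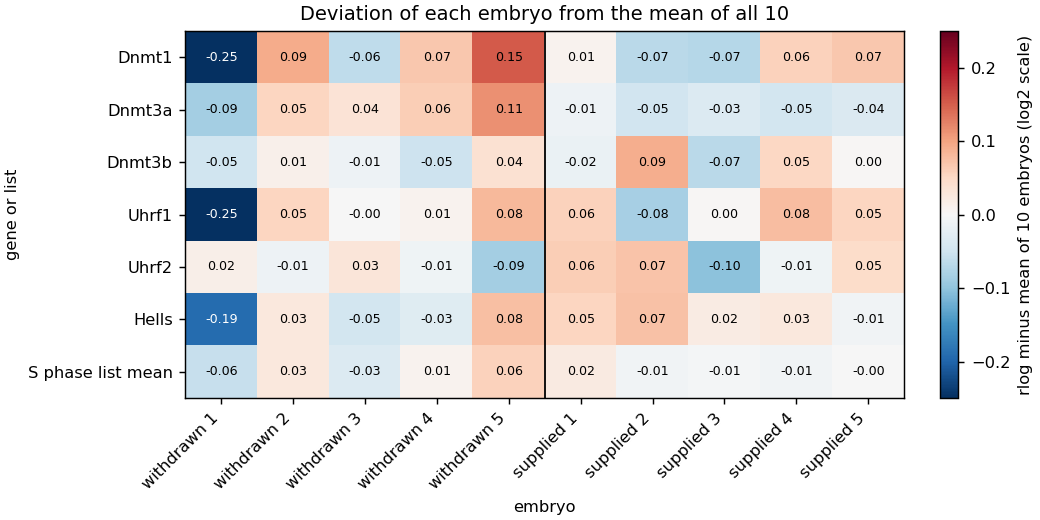
Value of each gene, and mean of the 40 S phase genes, in each embryo minus its mean over all 10 embryos (rlog, log2 scale), withdrawn embryos left of the line and supplied right of it. Withdrawn embryo 1 is dark blue for Dnmt1, Uhrf1 and Hells, whereas Dnmt3b and Uhrf2 do not share that column's pattern.

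Dnmt1 moved with Uhrf1 and with the S phase mean across embryos. Of 21 relations computed (15 pairs of the 6 genes, and each gene with the S phase mean), 2 passed by Pearson's r with a permutation p from 100000 resamples, adjusted over the 21, and 0 by Spearman's rho. Dnmt1 and Uhrf1 had r = 0.900 (permutation p = 0.00094, adjusted 0.0120) and rho = 0.770 (permutation p = 0.0131, adjusted 0.0611) over the 10 embryos. With each group centred on its mean r was 0.925. Without the 2 embryos farthest from the Dnmt1 median, withdrawn 1 and 5, r was 0.707 (exact permutation p = 0.0429, adjusted 0.247), so the adjusted call rests on them. Dnmt1 and the S phase mean had r = 0.869 (permutation p = 0.00114, adjusted 0.0120) and rho = 0.830 (permutation p = 0.0046, adjusted 0.0611), with r = 0.869 after centring the groups. Without the same 2 embryos, also farthest from the median of the S phase mean, r was 0.625 (exact permutation p = 0.101, adjusted 0.422). The adjusted call of this relation too rests on them. Without withdrawn embryo 1 alone r was 0.775. Leaving out the extremes narrows the range and the number of embryos, so it cannot show whether a relation itself depends on them.

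**Figure D4:**
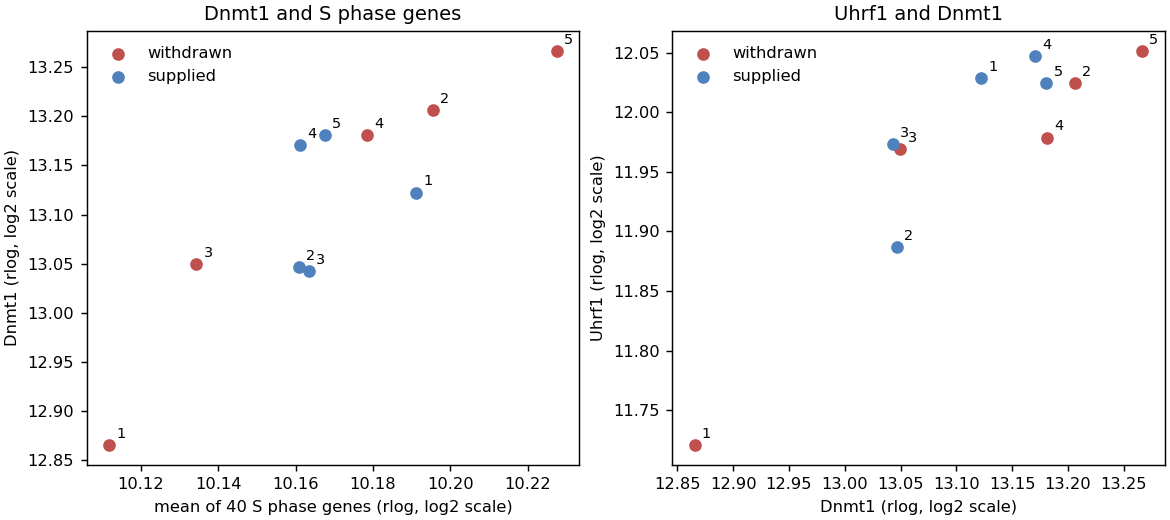
Left, Dnmt1 against the mean of 40 S phase genes; right, Uhrf1 against Dnmt1; all axes are rlog values (log2 scale), each point is 1 embryo and numbers are replicates. Withdrawn embryos 1 and 5 hold the ends of both plots, with the other 8 embryos between them.

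Centring each group on its mean changed the count of calls from 2 to 10 of the 21 relations, namely all those among Dnmt1, Dnmt3a, Uhrf1 and Hells and of these 4 with the S phase mean. Dnmt3a and Hells then had r = 0.914 (permutation adjusted p = 0.00732), against 0.387 over the uncentred values, and Dnmt3a and Uhrf1 0.890 (permutation adjusted p = 0.0050), against 0.556. The permutations of centred values shuffled embryos across both groups, although these 4 genes spread more widely in the withdrawn group. They also made no allowance for the subtracted group means, so the p-values after centring may be too small. Within the withdrawn group r of these 10 relations ran from 0.839 to 0.972. Within the supplied group it ran from -0.601 (Uhrf1 and Hells) to 0.957 (Dnmt3a and the S phase mean), with 0.0429 for Dnmt3a and Hells. Over the uncentred values without withdrawn embryo 1, r was -0.0555 for Dnmt3a and Hells and 0.0409 for Uhrf1 and Hells. For Dnmt1 and Uhrf1 it was then 0.753. None of the 21 passed without the 2 farthest embryos. With the groups centred and the 2 farthest embryos left out, a setting chosen after seeing the data, 1 passed. It was Dnmt3a and Uhrf1 without withdrawn embryos 4 and 5 (r = 0.892, exact permutation adjusted p = 0.037), where withdrawn embryo 1 is still among the 8 embryos.

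Over the uncentred values the other 19 relations did not pass. Dnmt1 and Hells had r = 0.706 and rho = 0.418 (permutation p = 0.0341 and 0.234, adjusted 0.102 and 0.446), with r = 0.791 after centring (permutation adjusted p = 0.0245), and without withdrawn embryos 1 and 5 r was -0.151. Dnmt1 and Dnmt3a had r = 0.708 and rho = 0.758 (permutation p = 0.0192 and 0.0145, adjusted 0.0671 and 0.0611), with r = 0.883 after centring (permutation adjusted p = 0.0050), and without the same 2 embryos r was 0.345. Uhrf1 and Uhrf2 had r = -0.245 and rho = -0.358 (permutation p = 0.501 and 0.313, adjusted 0.554 and 0.491), and r was 0.0482 without withdrawn embryo 1 and supplied embryo 2. Dnmt3a and Dnmt3b had r = 0.0535 and rho = -0.127 (permutation p = 0.883 and 0.733, adjusted 0.883 and 0.810), and r was 0.0323 without withdrawn embryos 4 and 5.

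The 3 genes of highest Pearson r with each member over the 10 embryos, among all genes, are given as a description with no test. For Dnmt1 they were Polr1a, the large subunit of RNA polymerase I (0.955), Whsc1, the histone H3K36 methyltransferase now named Nsd2 (0.954), and the tyrosine kinase gene Src (0.949). For Uhrf1 they were Nhlrc2 (0.946), the replication checkpoint gene Clspn (0.932), which is on the S phase list, and Phrf1 (0.922). For Hells they were Lrrc47 (0.943), the nuclear pore gene Nup93 (0.916) and the remodeller gene Chd1 (0.905). For Dnmt3a they were Fbxo42 (0.919), the casein kinase 2 subunit gene Csnk2a2 (0.908) and the Notch coactivator gene Maml3 (0.899). Dnmt3b was nearest to the complex I assembly gene Ndufaf4 (0.951), Cmklr1 (0.902) and Gm14827 (0.889), and Uhrf2 to Cpne2 (0.944), Gtpbp8 (0.914) and Lca5l (0.905). The top of 13577 correlations over 10 embryos is high by choice.

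The genes around these enzymes did not pass the test either. In each of the 6 lists of the methylation pathway, 0 members were called by limma over all genes in either direction, and the median differences are set here against a median of 0.00021 over all genes. Maintenance partners at the replication fork had the most members on 1 side: 14 of 16 were above 0 and 2 below, with a median of 0.02 and 0 members at an unadjusted p under 0.05. After quantile normalization 11 were above 0. The clamp loader subunit Rfc1 was at 0.07 (limma adjusted p = 0.979), Setd7, a lysine methyltransferase that acts on DNMT1, at 0.04 (limma adjusted p = 0.986) and Chaf1a, of the chromatin assembly factor, at 0.06 (limma adjusted p = 0.991). The clamp gene Pcna and Cdca7, the partner of HELLS, were the 2 below 0, both at -0.02.

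Other members of the methyltransferase family and factors that recruit them had 13 of 20 members above 0 and 7 below, with a median of 0.01, while after quantile normalization 7 were above and 13 below. The H3K9 methyltransferase gene Setdb1 was at 0.10 (limma unadjusted p = 0.0497, adjusted p = 0.931). Suv39h2, another H3K9 methyltransferase gene, was at -0.10 (limma adjusted p = 0.960) and Pwwp2a at -0.06 (limma adjusted p = 0.962). Dnmt3l, the cofactor of de novo methylation in germ cells, had no row, and the RNA methyltransferase gene Trdmt1, once named Dnmt2, was at 0.01. The list of readers of methylated DNA had 8 of 13 above 0 and 5 below, with a median of 0.0057. After quantile normalization 6 were above and 7 below. These counts also hold genes that are not established readers of methylated DNA, among them Sra1, Mbd5 and Mbd6. Mbd2 was at -0.05 (limma adjusted p = 0.991) and Zbtb4 at 0.05 (limma adjusted p = 0.991).

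On the side of removal, the list of oxidation and base excision repair had 14 of 26 members above 0 and 12 below, with a median of 0.0063. Parp2, which senses DNA breaks in repair, was at -0.10 (limma unadjusted p = 0.0424, adjusted p = 0.931), and Gadd45g at -0.14 (limma adjusted p = 0.931). The demethylase gene Tet1 was at 0.13 (limma unadjusted p = 0.0475, adjusted p = 0.931). The methionine cycle, which supplies the methyl donor S-adenosylmethionine, had 10 of 19 members above 0 and 9 below, with a median of 0.0014. The folate enzyme gene Mthfd2 was at -0.10 (limma adjusted p = 0.971) and Ahcyl1 at -0.07 (limma adjusted p = 0.972). Mat2a, which encodes the S-adenosylmethionine synthetase of most tissues, was at -0.05 (limma adjusted p = 0.992), and Ahcy, which clears the product of methyl transfer, at 0.04 (limma adjusted p = 0.991).

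Of 35 germline genes known to be kept silent in somatic cells by promoter methylation, 5 had a row. Of these, 2 were above 0 and 3 below, with a median of -0.05. Tdrd1, a piRNA pathway gene, stood at 5.77 ± 0.0456 in withdrawn and 5.96 ± 0.0930 in supplied embryos (SD, n = 5 each), a difference of -0.20 (limma adjusted p = 0.167), with 4 of 5 withdrawn embryos below all supplied ones. Taf7l was at -0.05 (limma unadjusted p = 0.0365, adjusted p = 0.928) and Tdrkh at -0.07 (limma adjusted p = 0.963). Tdrd1 is also a germ cell marker. Of the 7 germ cell markers with a row, 3 were above 0 (Sall4 at 0.22, limma adjusted p = 0.956) and 4, with Tdrd1, below. The part of leftover germ cells in the Tdrd1 value was not tested.

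**Figure D5:**
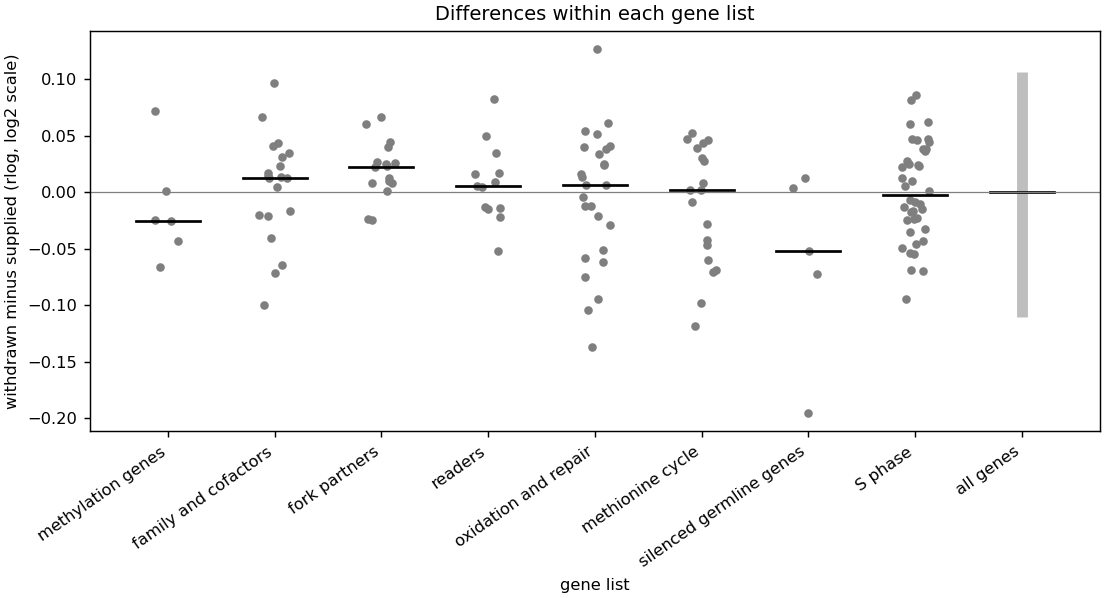
Difference of each gene, withdrawn minus supplied (rlog, log2 scale), by gene list; each point is a gene and each black line a list median, and the grey bar spans the central 95% of all 13578 genes, from -0.111 to 0.106. Most points of every list lie within that span, and Tdrd1 at -0.20 is the lowest point.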

How the data were processed

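RNA of Oct4-negative gonadal cells of 10 single embryos (5 withdrawn, 5 supplied, grouped by the treatment label) was sequenced with a low-input total RNA kit, per the labels' protocols. Expression was deposited as regularised log2 (rlog) values per gene, in 1 table made by the authors. Per the submitters' processing notes, DESeq2 1.20.1, TopHat2 2.1.1 and Trim Galore 0.4.0 were used, with genome build mm9. The gene counter, the annotation and the use of strand are not stated in the sources used. All 10 columns matched a sample title, and 0 columns were left out.

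The test was limma 3.58.1 in R 4.3.3 on all 13578 genes, withdrawn minus supplied, with a variance trend, no covariate, and Benjamini-Hochberg adjustment at 0.05. A minimum mean of 3 removed no gene. It was tried on simulated data with known differences. Exact permutation tests of single genes and permutation tests of correlations stood beside it. Named genes were the listed genes, the 3 of smallest p in each pathway list and the 3 nearest by Pearson r; Pcna, Cdca7, Trdmt1, Mat2a and Ahcy were added after their values were seen. A few genes chosen by this rule are left unreported. The members and lists were chosen with earlier results of these data known. Promoters came from RefSeq on GRCm38.p6, another build than the table's, and served for sequence only. Alternatives were a mean minimum of 5 or none, 2 other variance models, 2 normalizations, sample weights, a replicate block, averaging of embryos that share a title number, S phase or germ cell covariates, and leaving out each embryo.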

Additional observations from a re-analysis of the deposited data

Results flagged for a closer look

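Uhrf1 in withdrawn embryo 1 stood apart from its group: its value of 11.721 lay below the other 4 withdrawn embryos by 0.751 of the group's whole range, above Dixon's critical value of 0.71 for 5 samples. It was 1 of 12 groups examined (6 genes in 2 groups), and chance alone takes about 1 in 20 groups past that value. The S phase mean was also lowest in this embryo (10.11), and its part in the low Uhrf1 value was not tested.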

How the results depend on the processing

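The count of listed genes called by limma was 0 of 6 in all 21 other settings, and their adjusted p lay between 0.807 and 0.9996. Dnmt3a kept its positive difference in 21 of 21 (0.03 to 0.10), and Dnmt3b (-0.045 to -0.0050), Uhrf2 (-0.055 to -0.0076) and Hells (-0.09 to -0.03) their negative one. The other filters, the variance models and the replicate block left every difference as it was (0.07 for Dnmt3a). In those settings only the p could change, and not the sign. Dnmt1, whose difference was near 0, changed sign with quantile normalization (-0.017), with embryos of 1 title number averaged (-0.019) and with the S phase covariate (-0.00097), and leaving out 1 embryo gave -0.037 to 0.063. Uhrf1 ranged from -0.069 to 0.014 when 1 embryo was left out, and was above 0 only without withdrawn embryo 1. The relation of Dnmt1 and Hells turned to r = -0.151 without the 2 farthest embryos. The cause of these changes was not tested.

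Over all genes 3 were called. The count was 1 without the variance trend, with quantile normalization, with averaging by title number and with the S phase covariate, 5 with robust variance or sample weights, and 6 with the germ cell covariate. It ranged from 0 to 4 when 1 embryo was left out, with 0 without withdrawn embryo 5 or supplied embryo 1. With the replicate block it was 2, and Dnmt3a stayed at 0.07 (limma adjusted p = 0.999). What embryos with the same replicate number in the withdrawn and supplied groups share is not stated. Across the groups, the correlations of their deviations from the group means were 0.172, -0.181, -0.364, -0.0908 and -0.103. Embryos of 1 group that share a title number were not compared in this way. The table gives no depth, so what depth limits is unknown.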
